A study of Rattus norvegicus with 15 samples.

Results

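The 8 photoreceptor transcription factors Nrl, Crx, Nr2e3, Otx2, Esrrb, Neurod1, Rorb and Mef2d were followed in rat retina after cell transplantation and sodium iodate (NaIO3) injury. The genes were taken by symbol from a table of 20375 genes. All 8 had a mean value above the filter on low values, as did 15424 genes in all.

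RNA-Seq had been carried out on 15 libraries of retinal tissue from wild type Sprague-Dawley rats, 3 libraries in each of 5 groups, collected on day 31 after transplantation. The no-treatment (NT) group was healthy. The sham, MSC, MSCEPO and DPSC groups received NaIO3, a toxicant that injures the retinal pigment epithelium and then the photoreceptors, at 40 mg/kg. The sham eyes were injected with vehicle, the MSC eyes with human mesenchymal stem cells of Wharton's jelly, and the MSCEPO eyes with such cells made to express human erythropoietin by a lentiviral vector. The study describes these injections as made into the vitreous before NaIO3 was given, not after the injury. The DPSC eyes received a further kind of cell that the labels name only by this abbreviation. Rats with xenografts also received dexamethasone at 2 mg/kg and then cyclosporin at 10 mg/kg/day, and whether the sham rats received these drugs is not stated in the sources used here. In differences from sham the cells and the drugs therefore cannot be told apart. The sample labels give the age as postnatal week 12, while the series text calls the rats 31-day-old. The study describes its libraries as biological replicates, and how many animals went into each is not stated, so the p-values measure the spread between these libraries.

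NRL, a basic leucine zipper factor, directs photoreceptor precursors to the rod fate and acts with the homeodomain factor CRX at the genes of rod phototransduction. NRL also switches on NR2E3, an orphan nuclear receptor that represses cone genes in rods. OTX2 acts upstream of CRX and is kept in photoreceptors, bipolar cells and retinal pigment epithelium. RORB stands upstream of NRL, ESRRB and NEUROD1 take part in the survival and upkeep of rods and other photoreceptors, and MEF2D is a MADS-box factor that binds with CRX at photoreceptor genes.

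Values were regularized log (rlog) values, a log2 scale on which library size is corrected and noisy values are drawn to the average of the gene, so differences are on that scale and tend to understate the change. Levels are compared between groups of the same gene, not between genes. Differences were tested with limma over all 15 libraries, and a gene was called at a Benjamini-Hochberg adjusted p under 0.05 over the 15424 genes tested. In bulk tissue, fewer cells of a type and less RNA per cell cannot be told apart. The rod phosphodiesterase subunit Pde6b, a defining marker of rods, had rlog values from 13.3 to 15.1 over the libraries. MSCEPO replicate 3 and MSC replicate 1 stood apart from their groups, with mean distances to the other libraries of the group of 91.0 and 73.3 where the other libraries had 29.9 to 68.9 (Euclidean distance over the rlog values of all 20375 genes). In MSCEPO replicate 3, the median deviation of the 25% of tested genes with the longest span minus that of the 25% with the shortest was -0.503, against -0.104 to 0.149 elsewhere. Esrrb and Rorb belong to the longest class and Mef2d to the next, and the called differences of the factors in MSC and MSCEPO from NT are given without these libraries as well.

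The 250 bases before the start of transcription are shown for the 3 factors on which the results turn most, Nrl, Crx and Esrrb, and for the rod genes Pde6b and Rbp3, whose levels ran closest to those of Nrl and Esrrb among rod genes. Pde6b encodes a subunit of the rod phosphodiesterase and Rbp3 the retinoid-binding protein of the space between photoreceptors and pigment epithelium. The sequences are those of RefSeq on build GRCr8, not the build of the files, and read 5′ to 3′ on the strand of the gene. They lie at chr15:32981443-32981692 (minus strand) for Nrl, chr1:85681853-85682102 (minus) for Crx, chr6:111738412-111738661 (plus) for Esrrb, chr14:1511436-1511685 (minus) for Pde6b and chr16:9273537-9273786 (plus) for Rbp3. Capitals mark matches on either strand to TAATCC (the core bound by CRX and OTX2), TGCTGA (part of the site of MAF factors such as NRL), AAGGTCA (bound by ERR and ROR receptors), CAGATG (an E-box of the NEUROD1 type) or CTATTTA (part of the MEF2 site).
Nrl: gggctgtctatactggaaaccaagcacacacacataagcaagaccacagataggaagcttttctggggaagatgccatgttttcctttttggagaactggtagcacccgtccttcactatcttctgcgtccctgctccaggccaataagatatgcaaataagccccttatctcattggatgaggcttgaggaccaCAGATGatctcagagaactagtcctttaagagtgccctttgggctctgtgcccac
Crx: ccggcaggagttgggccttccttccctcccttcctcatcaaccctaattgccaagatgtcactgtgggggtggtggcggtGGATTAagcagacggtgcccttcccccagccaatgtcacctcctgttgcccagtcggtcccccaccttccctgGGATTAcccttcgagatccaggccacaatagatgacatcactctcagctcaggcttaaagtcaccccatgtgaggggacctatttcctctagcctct
Esrrb: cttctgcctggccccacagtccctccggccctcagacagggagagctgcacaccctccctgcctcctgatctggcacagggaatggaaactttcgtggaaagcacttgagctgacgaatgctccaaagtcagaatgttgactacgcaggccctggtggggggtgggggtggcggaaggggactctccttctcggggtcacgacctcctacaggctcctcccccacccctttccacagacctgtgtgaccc
Pde6b: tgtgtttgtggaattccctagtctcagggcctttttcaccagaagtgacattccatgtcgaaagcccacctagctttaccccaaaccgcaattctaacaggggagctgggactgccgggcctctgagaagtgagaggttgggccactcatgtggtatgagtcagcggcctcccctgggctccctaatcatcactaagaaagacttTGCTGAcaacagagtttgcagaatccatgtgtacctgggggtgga
Rbp3: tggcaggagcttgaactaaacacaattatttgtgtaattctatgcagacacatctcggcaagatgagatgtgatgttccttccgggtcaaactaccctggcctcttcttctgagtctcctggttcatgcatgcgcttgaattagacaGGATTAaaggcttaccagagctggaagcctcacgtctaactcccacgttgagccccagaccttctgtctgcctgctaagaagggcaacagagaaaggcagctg

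The Crx window held TAATCC 2 times, both on the opposite strand, where 6.34% of 33469 rat promoters of this length held it at least 1 time. Among the 23 of 30 listed rod genes with a window, 9 (39.1%) held TAATCC, Rbp3 among them. The list was drawn up as rod genes bound by NRL and CRX, so this share is not independent of how its genes were chosen. Of the 7 factors with a window, 1 held TAATCC (Crx), 1 held CAGATG (Nrl) and 3 held TGCTGA (Neurod1, Rorb and Mef2d), where 14.0% and 15.1% of all promoters held the last 2 motifs. AAGGTCA and CTATTTA, held by 3.99% and 2.47% of all promoters, were in the windows of 0 factors. A match is a description of these letters and not of a bound site.

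Esrrb, an orphan nuclear receptor, was the factor with the largest fall. Its rlog values were 11.35, 11.37 and 11.41 in the NT libraries and 10.66, 9.89 and 10.03 in the sham libraries. They were 10.22, 9.16 and 10.23 in the DPSC, 9.12, 9.31 and 9.34 in the MSC and 8.95, 8.82 and 8.74 in the MSCEPO libraries. The 3 NT libraries stood above all 12 others, and all MSCEPO libraries were below all MSC libraries. Esrrb fell in each group, with log2 differences from NT of -1.19 ± 0.25 (SE) in sham (limma adjusted p = 0.0499), -1.51 in DPSC (adjusted p = 0.0089), -2.12 in MSC (adjusted p = 0.00049) and -2.54 in MSCEPO (adjusted p = 0.00016). The fall in MSCEPO, 82.8% after return to a linear scale, was the third largest of the 15424 genes tested. The call in sham, close to the threshold, was lost in 14 of 22 alternatives (adjusted p from 0.00554 to 0.238 over the 22). Esrrb had the largest fall of the 8 factors in all 12 libraries given NaIO3. Without MSCEPO replicate 3 its difference in that group was -2.49, and without MSC replicate 1 its difference in the MSC group was -2.05, both still called.

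**Figure D1:**
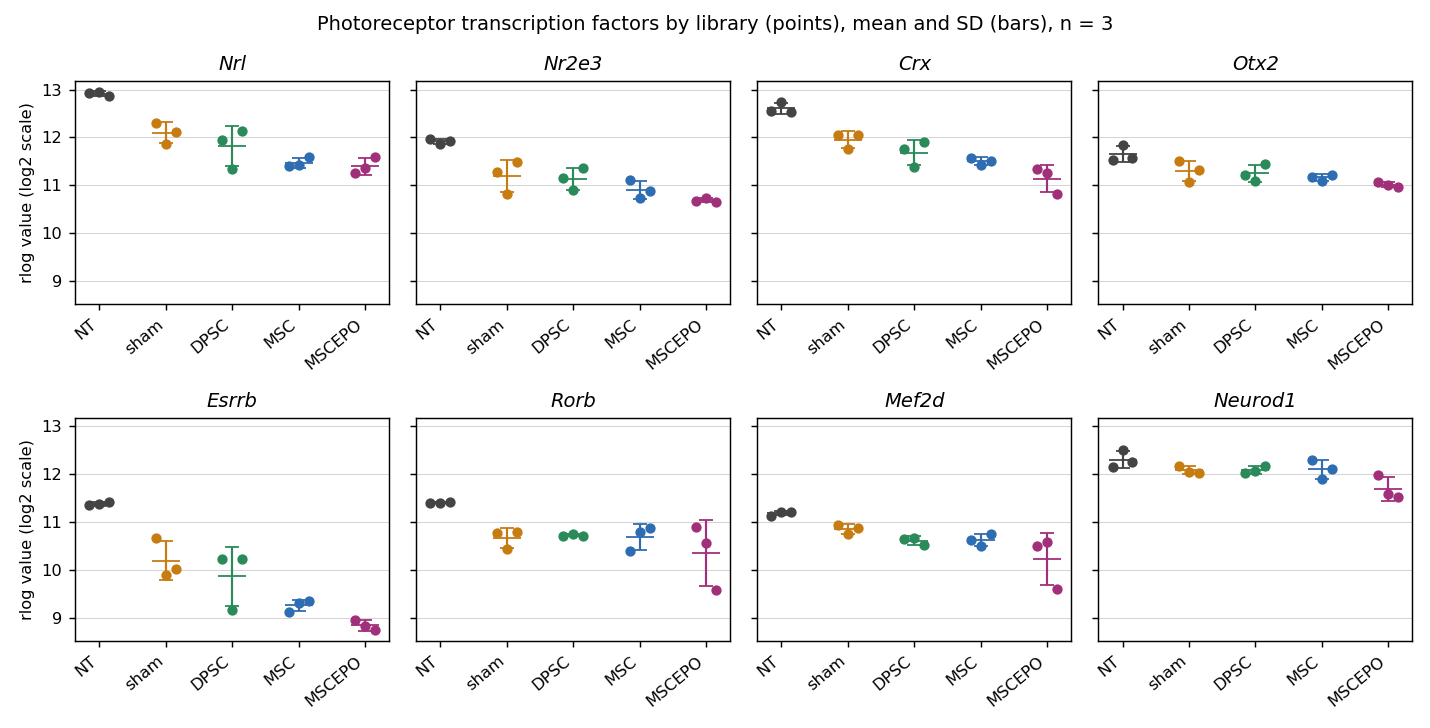
rlog value (log2 scale) of the 8 factors in each of the 15 libraries, by group, with points for libraries and bars for the mean and SD of 3. Esrrb runs from 11.41 in an NT library down to 8.74 in an MSCEPO library, while Neurod1 stays between 11.52 and 12.50.

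The rod determinants Nrl and Nr2e3 fell in the 3 cell groups. Nrl was 12.94, 12.95 and 12.86 in NT, 12.31, 11.87 and 12.11 in sham and 11.95, 11.34 and 12.14 in DPSC. It was 11.40, 11.42 and 11.59 in MSC and 11.25, 11.36 and 11.59 in MSCEPO. No NaIO3 library reached the lowest NT value, and the MSC and MSCEPO libraries were all below the lowest sham library. The log2 differences of Nrl from NT were -1.51 ± 0.18 (SE) in MSCEPO (limma adjusted p = 0.00029), -1.44 in MSC (adjusted p = 0.00054) and -1.10 in DPSC (adjusted p = 0.0071). In sham its difference was -0.82 (adjusted p = 0.0529), which missed the threshold. Without MSCEPO replicate 3 and without MSC replicate 1 the differences were -1.61 and -1.41, both still called. Nrl had the second largest fall of the factors in 9 of the 12 libraries.

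Nr2e3 was 11.97, 11.87 and 11.92 in NT, 11.28, 10.82 and 11.48 in sham, 11.15, 10.89 and 11.35 in DPSC, 11.10, 10.73 and 10.88 in MSC and 10.68, 10.74 and 10.65 in MSCEPO. The NT libraries were above all others, and the sham, DPSC and MSC libraries overlapped. Its differences from NT were -1.23 ± 0.16 (SE) in MSCEPO (limma adjusted p = 0.00054), -1.02 in MSC (adjusted p = 0.0018) and -0.79 in DPSC (adjusted p = 0.021). In sham its difference was -0.73 (limma adjusted p = 0.0537), close to that in DPSC but not called. Without MSCEPO replicate 3 and without MSC replicate 1 the differences were -1.21 and -1.11, and the calls held. In DPSC the call was lost without any 1 of NT replicates 1, 2 and 3 or DPSC replicates 1 and 2 (adjusted p from 0.0579 to 0.094).

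Crx, the homeodomain activator of photoreceptor genes, was 12.54, 12.74 and 12.54 in NT, 12.05, 11.76 and 12.06 in sham and 11.75, 11.39 and 11.90 in DPSC. It was 11.58, 11.43 and 11.51 in MSC and 11.35, 11.26 and 10.82 in MSCEPO, so that MSCEPO lay wholly below MSC and MSC wholly below sham. Crx fell against NT, with differences of -1.47 ± 0.16 (SE) in MSCEPO (limma adjusted p = 0.00018), -1.10 in MSC (adjusted p = 0.0012) and -0.93 in DPSC (adjusted p = 0.0088). In sham its difference was -0.66 (limma adjusted p = 0.0776), which was not called. Without MSCEPO replicate 3, the lowest of the 15 libraries for Crx, the MSCEPO difference was -1.30 (adjusted p = 0.00029), and without MSC replicate 1 the MSC difference was -1.14 (adjusted p = 0.00402).

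Otx2, which acts above Crx and is not confined to photoreceptors, fell less. It was 11.53, 11.85 and 11.57 in NT, 11.50, 11.08 and 11.32 in sham, 11.20, 11.09 and 11.45 in DPSC, 11.18, 11.09 and 11.22 in MSC and 11.06, 11.01 and 10.96 in MSCEPO. The lowest NT and highest sham libraries differed by only 0.03. Otx2 differed from NT by -0.64 ± 0.12 (SE) in MSCEPO (limma adjusted p = 0.0063) and by -0.48 in MSC (adjusted p = 0.0187), where the call was lost without NT replicate 2 or MSC replicate 2 (adjusted p = 0.0846 and 0.0643). Without MSCEPO replicate 3 the MSCEPO difference was -0.61 (adjusted p = 0.0112), and without MSC replicate 1 the MSC difference was -0.49 (adjusted p = 0.0454). Genes of the retinal pigment epithelium, which also expresses Otx2, varied among the NT libraries, with mean levels from -0.52 to 0.46 relative to the NT mean. They ran from -0.68 to -0.11 in the sham and from -1.80 to 0.06 in the MSC libraries. In the MSCEPO libraries they ran from -1.43 to -0.15, and in the DPSC libraries from -0.84 to 0.25. Their part in the values of Otx2 was not tested.

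Rorb and Mef2d were called in MSCEPO alone, and the sizes of these falls depended on MSCEPO replicate 3. Rorb was 11.39, 11.40 and 11.41 in NT, from 10.43 to 10.80 in sham, 10.70 to 10.74 in DPSC and 10.39 to 10.88 in MSC. In MSCEPO it was 10.90, 10.57 and 9.59, the last in replicate 3. Mef2d was 11.13, 11.21 and 11.20 in NT and 10.50, 10.59 and 9.60 in MSCEPO, while sham ran from 10.74 to 10.94, DPSC from 10.52 to 10.67 and MSC from 10.49 to 10.76. For both genes the NT libraries were above all others, and the third MSCEPO library was far below the other two. The difference from NT in MSCEPO was -1.05 ± 0.25 (SE) for Rorb (limma adjusted p = 0.0181) and -0.95 ± 0.20 for Mef2d (adjusted p = 0.0089). Without that library the differences were -0.67 (adjusted p = 0.0109) and -0.64 (adjusted p = 0.0011). The Rorb call was lost without any 1 of the 3 NT libraries (adjusted p from 0.0549 to 0.0643). Leaving out MSCEPO replicate 3 also brought both genes under the threshold in MSC and DPSC (adjusted p from 0.0010 to 0.0119) and Rorb in sham (adjusted p = 0.0163). Without both MSC replicate 1 and MSCEPO replicate 3, Rorb and Mef2d were called lower in all 4 NaIO3 groups (limma adjusted p from 0.00125 to 0.0461).

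Neurod1, a basic helix-loop-helix factor also found in amacrine cells, changed least. It was 12.15, 12.50 and 12.25 in NT, 12.02 to 12.17 in sham, 12.02 to 12.17 in DPSC, 11.90 to 12.30 in MSC and 11.99, 11.58 and 11.52 in MSCEPO. The sham, DPSC and MSC libraries overlapped those of NT, with differences of -0.23, -0.22 and -0.20. In MSCEPO its difference was -0.61 ± 0.14 (SE, limma adjusted p = 0.0141), a call lost without NT replicate 2 or MSCEPO replicate 2 (adjusted p = 0.067 and 0.0557). Without MSCEPO replicate 3 it was -0.52 (adjusted p = 0.0275). Neurod1 had the smallest fall of the factors in 10 of the 12 NaIO3 libraries.

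Counted together, all 8 factors were below NT in each NaIO3 group, as were 48.8%, 49.7%, 50.5% and 49.4% of all genes tested in sham, MSC, MSCEPO and DPSC. In sham, 1 of 8 was called lower, where 0.331% of the genes tested were. In MSC 5 of 8 were called lower (background 6.37%), in MSCEPO 8 of 8 (5.81%) and in DPSC 4 of 8 (1.41%), and 0 were called higher in any of the 4 (0.558%, 11%, 5.83% and 1.43% in the same order). With a fold change over 2 as well, the counts were 1, 4, 5 and 2 (0.0259%, 0.985%, 1.24% and 0.259%). The groups did not overlap, with NT higher, for 7 of 8 in sham (15.3% of genes), 7 in MSC (21.2%), 8 in MSCEPO (15%) and 7 in DPSC (15.7%). The median difference of the 8 was -0.69 in sham, -0.87 in MSC, -1.14 in MSCEPO and -0.74 in DPSC, while that of all genes tested lay between -0.0036 and 0.0047. These comparisons share the 3 NT libraries. The sham count rests on a p close to the threshold. With each of the 15 libraries left out in turn it was 5 without MSCEPO replicate 3, 4 without DPSC replicate 2 and 0 or 1 otherwise. Esrrb was lost in sham without any NT library, sham replicate 2 or sham replicate 3 (adjusted p from 0.159 to 0.238), and without any MSC library, MSCEPO replicate 1 or 2 or DPSC replicate 1 or 3, which enter only through the shared spread (adjusted p from 0.051 to 0.0796). The count was 6 in a fit of sham and NT alone. Without both MSC replicate 1 and MSCEPO replicate 3, the counts were 6 in sham, 7 in MSC, 8 in MSCEPO and 6 in DPSC, and the 5 added in sham were Nrl, Crx, Nr2e3, Rorb and Mef2d (limma adjusted p from 0.00521 to 0.0461). The share of all genes called in these alternative fits is not given beside the counts. A rise in the count of factors therefore cannot be told apart here from a general rise in calls.

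**Figure D2:**
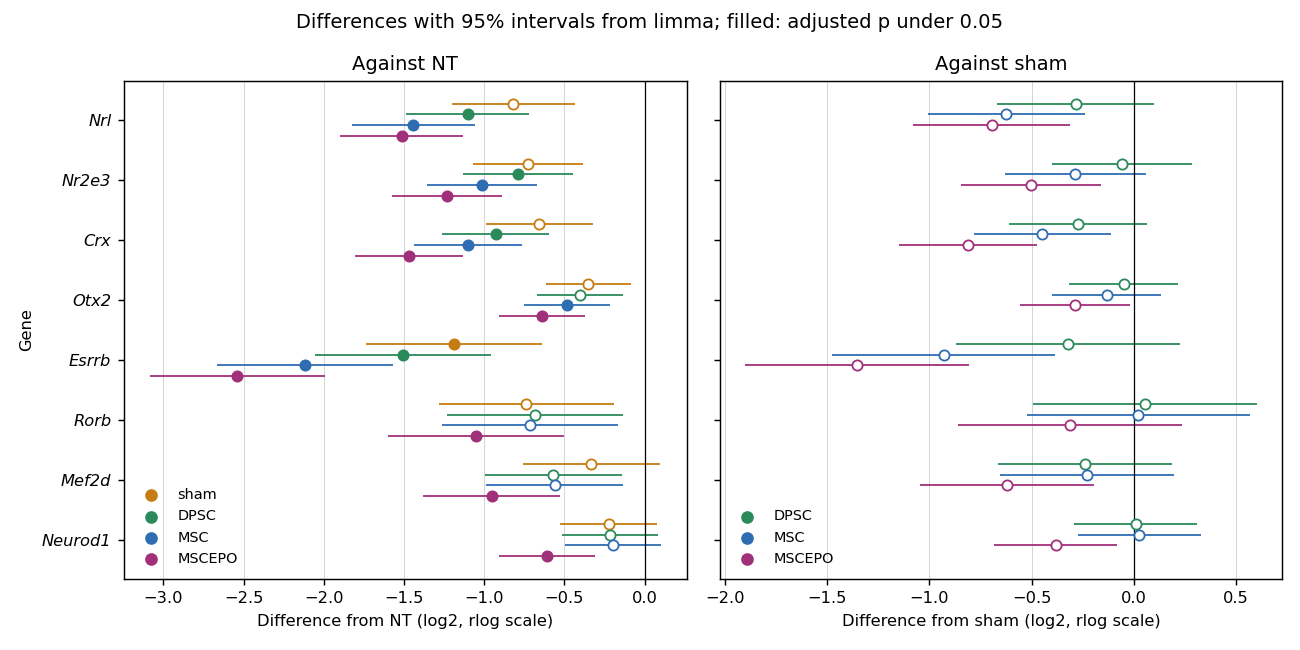
Difference of each factor from NT (left) and from sham (right) on the rlog (log2) scale with 95% intervals from limma, where filled points are called. Against NT, MSCEPO has 8 filled points and sham has 1, and against sham there are 0.

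Whether a cell transplant left the factors different from vehicle was asked of the 3 cell groups against sham. No factor was called in any of them (limma, adjusted p from 0.0955 upward), where 0, 4 and 3 genes were called lower in MSC, MSCEPO and DPSC (0%, 0.0259% and 0.0195%). At an unadjusted p under 0.05, 3 factors were lower in MSC (Nrl, Crx and Esrrb; 3.82% of genes), 7 in MSCEPO (all but Rorb; 5.12%) and 0 in DPSC (1.39%). The libraries lay wholly below sham for 3 factors in MSC (11.3% of genes), 7 in MSCEPO (6.81%) and 1 in DPSC, Mef2d (5.07%). Esrrb differed from sham by -1.35 in MSCEPO (95% interval -1.90 to -0.81, adjusted p = 0.0955), by -0.93 in MSC (-1.48 to -0.38, adjusted p = 0.143) and by -0.32 in DPSC (-0.87 to 0.23). In a fit of 12 libraries without DPSC, Esrrb was called in MSCEPO (adjusted p = 0.0342), and without DPSC replicate 2 it was called in both MSCEPO (adjusted p = 0.0113) and MSC (adjusted p = 0.0458). Crx differed by -0.81 in MSCEPO (-1.15 to -0.48, adjusted p = 0.0963). Neurod1 and Rorb in MSC and in DPSC differed from sham by 0.01 to 0.05, and the sign of these differences turned with 1 library left out.

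Between the cell groups 0 factors were called, as were 0 genes in all (0%). All 8 were higher in MSC than in MSCEPO (54.8% of genes), with 3 not overlapping (Crx, Otx2 and Esrrb; 2.18% of genes) and 2 at an unadjusted p under 0.05 (Crx and Neurod1; 3.79%). All 8 were also higher in DPSC than in MSCEPO (52%), with 5 not overlapping (2.39%) and 5 at an unadjusted p under 0.05 (2.48%). DPSC against MSC had 1 factor at that level, Esrrb (7.02%). For Rorb the lower mean in MSCEPO than in MSC and DPSC rested on MSCEPO replicate 3. Without that library Rorb in MSCEPO was 0.068 above sham, where MSC and DPSC were 0.022 and 0.054 above sham. The sizes of the other differences between cell groups are not given without that library. Esrrb was higher in DPSC than in MSCEPO by 1.03 (95% interval 0.48 to 1.58, limma adjusted p = 0.996). DPSC replicate 2 was the lowest DPSC library for Nrl, Crx, Nr2e3, Otx2 and Esrrb. Without it the Esrrb difference was 1.39 and was called (adjusted p = 0.0336). Its macrophage and microglia level was 2.30, against 0.98 and 1.11 in the other DPSC libraries, and its lens and ciliary body level was -0.67, against 5.17 and 4.26. Their part in the difference was not tested.

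The order of the group means was NT, sham, DPSC, MSC and MSCEPO, from high to low, for Nrl, Crx, Nr2e3, Otx2 and Esrrb. Among these 5, the only neighbours in the order that passed the test were NT and sham for Esrrb. NT and sham did not overlap for any of the 5, sham and DPSC overlapped for all, and MSC and MSCEPO did not overlap for Crx, Otx2 and Esrrb. MSCEPO was the lowest group for Neurod1, Rorb and Mef2d too. For Rorb this rank rested on MSCEPO replicate 3, without which MSCEPO was 0.068 above sham. Over the 5 groups the F test called 5 factors, Nrl, Crx, Nr2e3, Otx2 and Esrrb (limma adjusted p from 0.0011 to 0.0473), and 6.22% of genes.

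The factors were set beside 29 measured genes of the list of rod genes bound by NRL and CRX, which holds the transducin Gnat1 and the phosphodiesterase and channel subunits. All 29 were below NT in each NaIO3 group, and 5 were called lower in sham, 28 in MSC, 28 in MSCEPO and 21 in DPSC, with medians of -0.73, -1.23, -1.39 and -0.96. Pde6b differed by -0.77 in sham (limma adjusted p = 0.0729) and by -1.49 in MSC, -1.65 in MSCEPO and -1.13 in DPSC, where it was called. Taken relative to NT and to the mean of the rod genes in the same library, Esrrb was lower in 12 of 12 NaIO3 libraries, from -1.33 to -0.13. Nrl was lower in 12 of 12 as well, but only from -0.39 to -0.0073, where the NT libraries themselves ran from -0.041 to 0.054. Crx and Nr2e3 lay on both sides, with medians of 0.10 and 0.13. Otx2 (0.15 to 0.88) and Neurod1 (0.46 to 1.12) were above the rod mean in all 12 libraries, and Mef2d in all but MSCEPO replicate 3. These relative values were not tested.

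**Figure D3:**
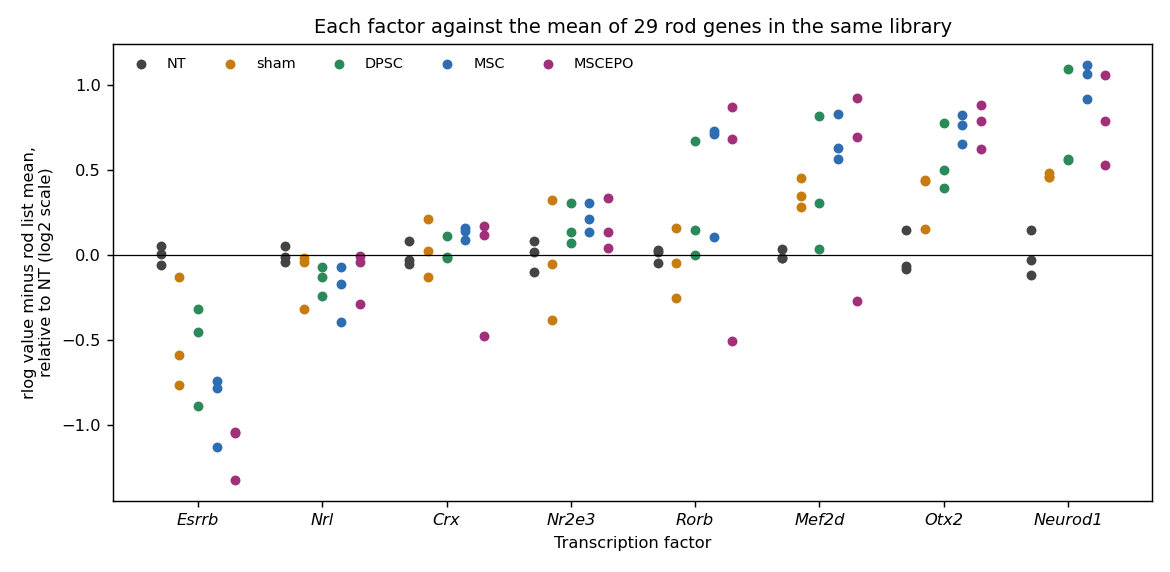
rlog value of each factor minus the mean of 29 rod genes in the same library, relative to NT (log2 scale), with 1 point for each of 15 libraries. Esrrb lies below 0 in all 12 NaIO3 libraries and Neurod1 and Otx2 above 0, while Rorb and Mef2d of MSCEPO replicate 3 lie at -0.50 and -0.27.

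The genes whose values ran most like each factor over the 15 libraries were taken by Pearson's r, as a description, since all share the same libraries and group differences. They were Sema7a (0.987) and Pde6b (0.983) for Nrl, Grk1 (0.987) and the green cone opsin Opn1mw (0.984) for Crx, and Rbp3 (0.986) and LOC361646 (0.982) for Esrrb. For Nr2e3 they were Cnga1 (0.977) and Tob1 (0.955), and for Otx2 Aipl1 (0.939) and Bicdl1 (0.932). Rorb was followed by Emsy (0.967), Mef2d by Tet3 (0.980) and Taok3 (0.976), and Neurod1 by Vps36 (0.908) and Cdkal1 (0.871). Among the factors themselves the highest value was 0.972, for Nrl with Esrrb, and the lowest 0.58, for Nrl with Neurod1.

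Cone genes, which NRL and NR2E3 hold down in rods, did not move as 1 group. Of 12 measured, 0 were called lower and 1 higher in sham, 3 and 1 in MSC, 3 and 1 in MSCEPO, and 1 and 1 in DPSC. Opn1mw fell, with differences of -1.28 in MSC, -1.73 in MSCEPO and -1.14 in DPSC, and so did the cone arrestin Arr3, with -1.15 in both MSC and MSCEPO. The short-wavelength opsin Opn1sw differed from NT by -0.09 to 0.19 and was not called. Gnb3, a G protein subunit of cones and of ON bipolar cells, rose by 1.07 in sham (limma adjusted p = 0.0444), 1.26 in MSC, 1.49 in MSCEPO and 1.11 in DPSC.

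Of 20 other regulators of photoreceptor genes, 0 were called lower in sham, 5 in MSC, 7 in MSCEPO and 2 in DPSC, with medians of -0.16, -0.26, -0.41 and -0.22. Casz1, a zinc finger factor, fell in MSCEPO (-1.35) and MSC (-0.89). The thyroid hormone receptor Thrb, which takes part in the choice of cone opsin, fell in MSC (-0.50), MSCEPO (-0.57) and DPSC (-0.45). Prdm1, which holds back bipolar fate in photoreceptor precursors, fell by 0.86 in MSCEPO. Notch1 rose by 0.55 in MSC and 0.54 in MSCEPO, and Bhlhe40 by 0.74 in MSC. Of 15 tested relatives of the factors by family, 0 were called lower in sham, MSC and DPSC and 2 in MSCEPO (Esrrg at -0.46 and Mef2c at -1.02). In MSCEPO replicates 1, 2 and 3 the mean level of the relatives relative to NT was 0.0007, -0.014 and -0.31. That of the other regulators was -0.24, -0.26 and -0.61, so both lists were lowest in replicate 3. The differences of single genes of these lists are not given without that library. Of the same relatives, 0 were called higher in sham and MSCEPO, 3 in MSC and 1 in DPSC, and the highest difference from NT in MSC was 1.08. Maf, of the family of Nrl, rose by 0.69 in MSC and by 0.94 in DPSC.

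Lists of other cell types moved with the groups in different ways. Of 19 bipolar cell genes, 1 was called lower in MSC (Sebox, -0.73) and 0 in the other NaIO3 groups against NT, with medians of 0.07 in sham, -0.13 in MSC, 0.13 in MSCEPO and -0.09 in DPSC. Among its defining markers, none of them called, the glutamate receptor Grm6 of ON bipolar cells differed from NT by -0.16 to 0.14, the channel Trpm1 by -0.88 (in MSCEPO) to -0.30 and Cabp5 by 0.11 to 0.26. Trpm1 ran from 11.13 to 12.90 over the MSCEPO libraries and from 12.89 to 13.36 over the NT libraries. The kinase Prkca, named for its size after the values were seen, differed by -1.05 in MSCEPO (limma adjusted p = 0.0558) and by -0.58 to -0.48 elsewhere. The differences of these bipolar cell genes are not given without MSCEPO replicate 3. All 18 macrophage and microglia genes were above NT in each NaIO3 group, with 0 called in sham, 17 in MSC, 15 in MSCEPO and 3 in DPSC, and the list's mean level relative to NT ran from 0.91 to 1.61 in sham, 1.96 to 3.77 in MSC, 1.65 to 2.57 in MSCEPO and 0.98 to 2.30 in DPSC. T and NK cell genes ran from 0.63 to 2.70 in MSC, 0.25 to 0.92 in MSCEPO, 0.01 to 0.73 in DPSC and -0.04 to 0.03 in sham, with 12 of 15 called higher in MSC and 1 called lower in MSCEPO. Amacrine, horizontal and ganglion cell genes, some of whose cells hold Neurod1 or Rorb, ran from -0.72 to -0.14 in MSC and -0.39 to -0.0020 in MSCEPO, with 2 and 0 of 20 called lower. Müller glia genes had 6 of 14 called higher and 1 lower in MSC and 5 higher in MSCEPO and 1 in DPSC. Of 16 genes of the retinal pigment epithelium, 5 were called lower in MSC and 2 lower and 1 higher in MSCEPO. The lens and ciliary body list ran from -1.20 to 0.77 in NT, from 1.06 to 1.58 in sham and from -0.67 to 5.17 in DPSC. It was 2.24 in MSC replicate 1, against 0.03 and 1.19 in the other MSC libraries, and 3.31 in MSCEPO replicate 3, against -0.49 and 0.60, with 0 of 12 called by limma in any group and 3 at an unadjusted p under 0.05 in DPSC. The part of these cell types in the values of the factors was not tested.

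**Figure D4:**
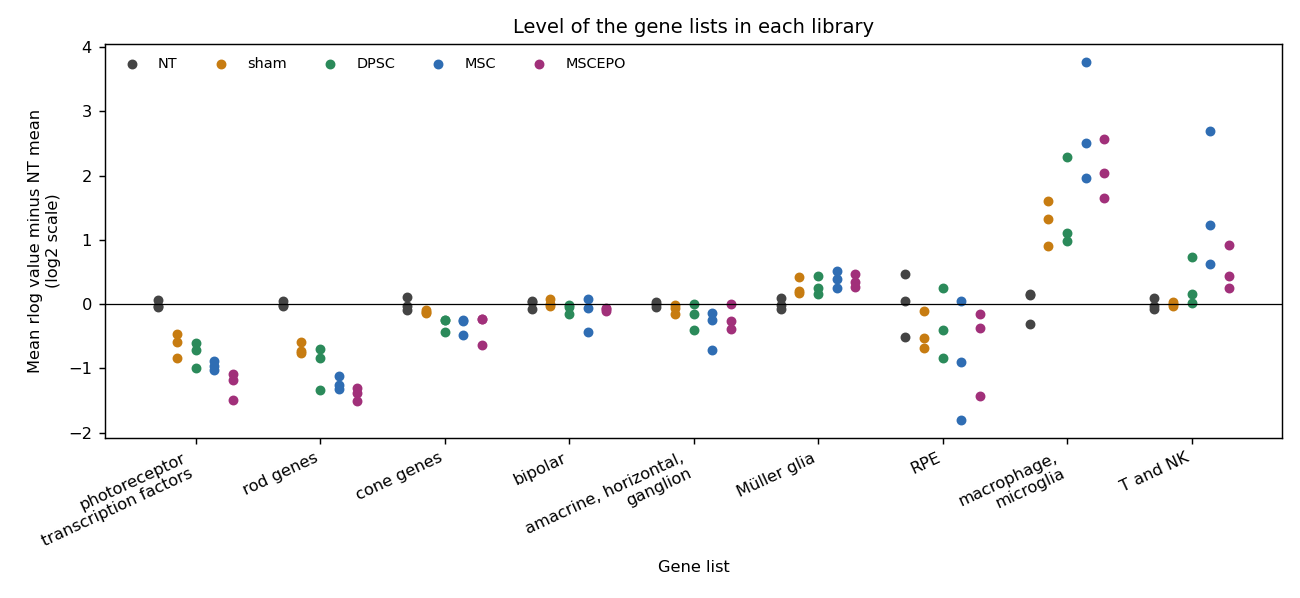
Mean rlog value of each gene list minus its NT mean (log2 scale), with 1 point for each of 15 libraries. The photoreceptor transcription factors and the rod genes lie below 0 in every NaIO3 library, and the macrophage and microglia genes lie at 0.91 or higher.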

How the data were processed

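Retinal RNA libraries were taken into 5 groups by the sample titles. The authors aligned paired reads to the Ensembl Rnor_6.0 rat transcriptome with Salmon 1.1.0, summed transcripts to genes with tximport and transformed the values with DESeq2. What was deposited is on the log2 scale. These rlog values carry the authors' correction for library size over the series, and the transform draws noisy values to the average of the gene. The files used hold no counts, so depths of single libraries are unknown and no counting interval is given. A further table of the whole series was not used. Its 15 columns hold the same values (0 differ).

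A gene was tested if its rlog values averaged 3.32 or more (log2 of 10), which left 15424 of 20375. One limma 3.58.1 fit (R 4.3.3) of group means over the 15 libraries, with variances moderated by a trend on the mean, gave 10 comparisons and an F test, adjusted by Benjamini-Hochberg. The threshold was an adjusted p of 0.05. A fold change over 2 was an alternative. An exact permutation test of 3 against 3 libraries cannot give a p under 0.1 and was not used. The script was tested on simulated data. The level of a gene list averages its tested genes in a library, after the NT mean is subtracted. Named genes are the 8 factors, the defining markers of each list and, in each, the 3 or fewer whose adjusted p was lowest, and the 2 genes closest to each factor by Pearson's r. Thrb, Prdm1, Casz1, Notch1 and other called members of the lists of regulators and relatives were chosen after their values were seen. Some genes that the rule names are not reported here. The 8 factors and the 11 other lists were chosen with earlier results of these data known. Gene spans matched 13574 of the tested genes (88%) and promoters came from RefSeq on GRCr8, whose coordinates are not those of Rnor_6.0. Figures were drawn with matplotlib 3.10.9 in Python 3.11.15.

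Alternatives were the fold change over 2, no filter, the 2 groups alone, a replicate block, 12 libraries without DPSC, median centring, quantile normalization and each library of the groups compared left out. Leaving out each library of the other groups, and MSC replicate 1 and MSCEPO replicate 3 together, were chosen after seeing the data.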

Additional observations from a re-analysis of the deposited data

How the results depend on the processing

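The count of factors called against NT moved most in sham, where 1 was called. It was 0 without a filter on low values or after quantile normalization, 2 in the 12 libraries without DPSC or after median centring, 6 in a fit of the 2 groups alone, and 6 without both MSC replicate 1 and MSCEPO replicate 3, an alternative chosen after seeing the data. In MSCEPO the count of 8 became 5 with a fold change over 2 and 5 in the 2 groups alone, where Neurod1, Rorb and Mef2d were lost (adjusted p = 0.0833, 0.112 and 0.087). In DPSC the count of 4 became 2 with a fold change over 2. In MSCEPO against sham it was 1 in the 12 libraries without DPSC, and without DPSC replicate 2 it was 1 in MSC and in MSCEPO against sham and in DPSC against MSCEPO. The causes were not tested. With each of the 15 libraries left out in turn, the counts ran from 0 to 5 in sham, 4 to 7 in MSC, 6 to 8 in MSCEPO and 3 to 6 in DPSC against NT, 0 to 1 for MSC and MSCEPO against sham and for DPSC against MSCEPO, 4 to 7 for the F test, and 0 to 0 elsewhere. The highest counts in sham (5), MSC (7) and DPSC (6) were those without MSCEPO replicate 3, and the count in sham was 4 without DPSC replicate 2. Over the 6 libraries of the groups compared alone, the counts against NT ran from 0 to 1 in sham, 4 to 5 in MSC, 6 to 8 in MSCEPO and 3 to 4 in DPSC. The share of all genes called in each alternative fit is not given beside these counts.

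The replicate numbers were not taken to pair the samples. Over 30 pairs of groups and numbers the correlation of same-numbered deviations ran from -0.441 to 0.653, 12 were above 0.1, and 5 of 15 libraries correlated best with their own number. With a replicate block the sham count against NT was 3, and no other count of factors moved by more than 1.5 times.

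Of 1280 alternative values for 59 differences of single factors, 1189 kept direction and side of the threshold, 29 lost the call, 43 gained it and 19 changed sign. Many of the alternatives change only the spread or the adjustment, so the direction of a difference could not turn in them. These are no filter, the 2 groups alone, the replicate block, the 12 libraries without DPSC and the leave-outs of libraries of other groups. Between the cell groups Esrrb alone was followed. Sign changes of other factors there, such as that of Rorb without MSCEPO replicate 3, were not counted. The sign changes counted were all in differences from sham that were not called. After median centring, Neurod1 and Rorb in MSC were -0.015 and -0.020. Without both libraries named above, Neurod1 in MSC was -0.071 and Rorb in MSCEPO was 0.068. With 1 library left out, the lowest and highest values were -0.071 and 0.13 for Neurod1 and -0.096 and 0.17 for Rorb in MSC, -0.59 and 0.068 for Rorb in MSCEPO, and in DPSC -0.25 and 0.085 for Nr2e3, -0.16 and 0.051 for Otx2, -0.50 and 0.034 for Esrrb, -0.033 and 0.057 for Neurod1 and -0.064 and 0.12 for Rorb. Depth could not be weighed, since the files used hold no counts.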
